A study of Mus musculus with 9 samples.

Results

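The genes described here are the cyclins, the cyclin-dependent kinases (CDKs), the CDK inhibitors and the phosphatases and kinases that set CDK activity, in sorted invariant natural killer T (iNKT) cells of the mouse thymus. The 43 genes were chosen by symbol. This list and the other gene lists below were drawn up with earlier results of these data known. Each gene was read from the probe set of highest mean level among those that the array's annotation gives to that gene alone. Such a probe set was found for 42 of the 43 genes, out of 18193 genes on the array. Ccnb1 was not analysed here. All 42 lay above the level filter used for testing, a mean log2 level of 4.54 over the arrays, which left 14524 genes.

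RNA came from 4 Utx knockout samples (KO1 to KO4) and 5 Utx wildtype samples (WT1 to WT5), each on its own array and each called a biological replicate in its title. Animals of both genotypes were 8 to 12 weeks old and matched for sex and age. The sources used here do not give the means of deletion (a Cre driver or otherwise), the strain, the sex or the sort gate. The titles also name 3 batches, of what they do not say: batch 1 held KO1 and WT1, batch 2 held KO2, KO3, KO4 and WT2, and batch 3 held WT3, WT4 and WT5. Utx is a histone demethylase of the X-linked gene Kdm6a that acts on methylated lysine 27 of H3, and the comparison asks how its loss changes expression in iNKT cells.

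Cyclins bind and activate CDKs, and the successive rise and fall of different cyclins moves a cell through its cycle. D-type cyclins with Cdk4 or Cdk6 act in G1, E-type cyclins with Cdk2 at the entry to S phase, and A- and B-type cyclins with Cdk2 and Cdk1 from S phase to mitosis. Inhibitors of the INK4 family bind Cdk4 and Cdk6, those of the CIP/KIP family bind cyclin-CDK complexes more broadly, and the kinases Wee1 and Myt1 hold Cdk1 inactive until Cdc25 phosphatases remove their marks. Other cyclins and CDKs act in transcription rather than in the cycle. Most mature T cells of the resting thymus do not divide, whereas iNKT precursors expand in the thymus after selection.

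The values are deposited log2 expression levels from RMA, and a difference is knockout minus wildtype from a limma fit with genotype and batch as factors, called at a Benjamini-Hochberg adjusted p under 0.05 over all genes tested. Since batch 3 holds wildtype samples only, each difference rests on batches 1 and 2, and WT3, WT4 and WT5 enter only the estimate of the spread. WT1 and WT2 are thus the lone wildtype arrays behind each difference, and without WT2 it is KO1 minus WT1. Without KO1 or WT1 the difference rests on batch 2, and leaving out either or both gives the same fit. The p-values measure the spread left between these samples once genotype and batch are fitted. The targeted gene Kdm6a read 10.01, 9.62, 10.05 and 10.07 in KO1 to KO4 and 9.94, 9.98, 10.15, 9.79 and 9.996 in WT1 to WT5, a difference of -0.01 (adjusted p = 0.974). That was the brightest of the 4 probe sets of Kdm6a, and the others are not given here. The sources used here do not say which part of Kdm6a was deleted, so this level does not check the labels. The median level per array was 5.97 to 6.09 in knockout and 6.04 to 6.09 in wildtype samples, and the interquartile range was 3.80 to 4.29 in knockout and 3.45 to 3.84 in wildtype samples. In each batch, deviations from the genotype means nearly cancelled over its arrays. The SD over genes of the batch mean deviation was 0.05, 0.03 and 0.01 in batches 1, 2 and 3, against 0.23, 0.28 and 0.21 for single arrays, and across genes the deviations of KO1 correlated at -0.92 with those of WT1 and at 0.91 with those of WT2. The sources used here do not say whether the values were adjusted for batch before deposit. Arrays have no read depth, and their number limits the precision.

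In knockout iNKT cells, 5 of the 7 members with a role in S, G2 and M phase rose, by 1.84 to 2.53 on the log2 scale. Of the 9 G1 and G1/S members 6 rose, of the 10 inhibitors 4 rose, and none of the 12 transcriptional cyclins and CDKs passed the test. Of the 42 members, 15 rose and 0 fell. Over all genes tested, 7.88% were called higher and 3.37% lower. At an unadjusted p under 0.05, limma gave 19 members higher and 2 lower, where 20% of all genes were higher and 10.7% lower. All knockout arrays lay above all wildtype arrays for 19 members and below them for 3, where the same held for 22.2% and 12.7% of all genes. The median difference of the members was 0.43, that of all genes 0.11. The 15 were Ccna2, Ccnb2, Ccnf, Cdk1, Cdc25c, Ccne2, Cdk2, Cdc25a, Cdk6, Ccnd1, Ccnd3, Wee1, Cdkn3, Cdkn1c and Cdkn2c. By class, 10 of 15 activators, 4 of 10 inhibitors and 1 of 17 other members rose.

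**Figure D1:**
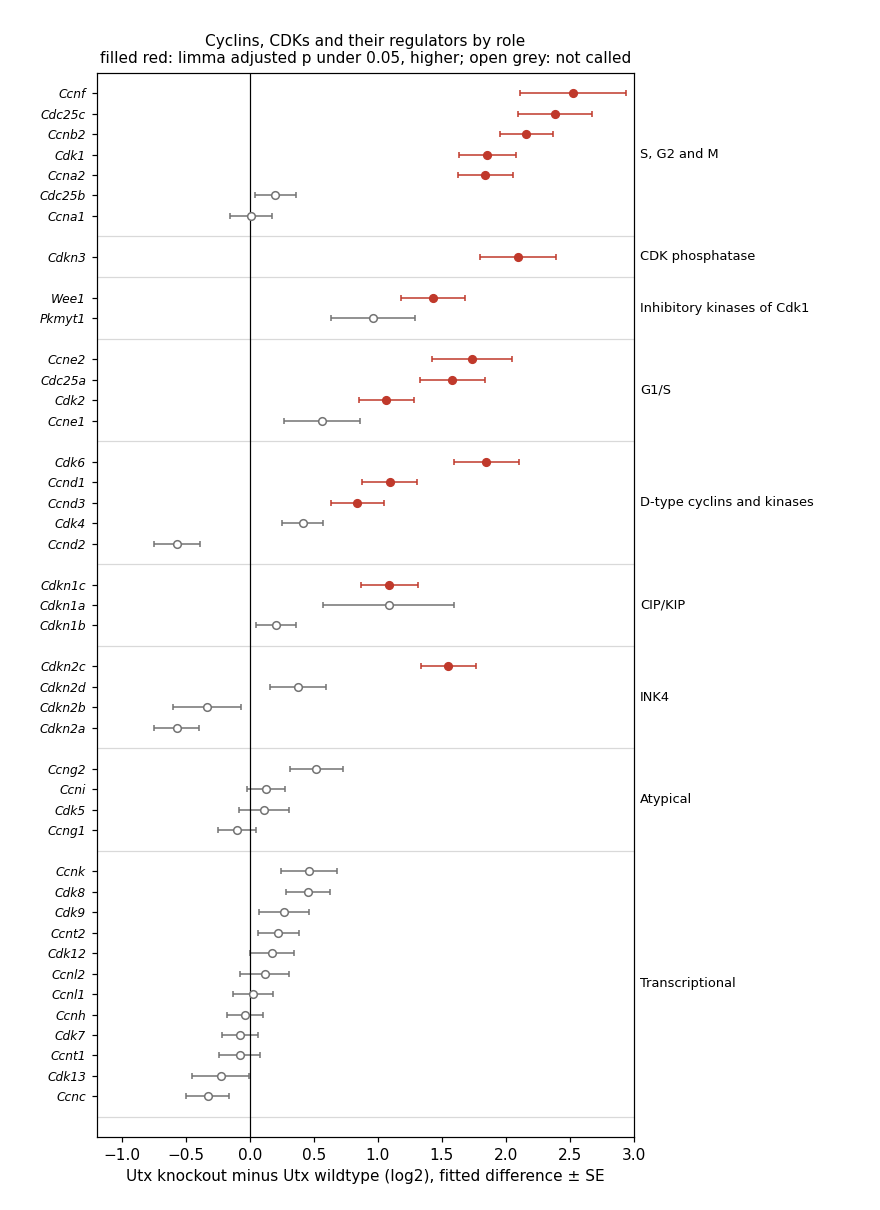
Fitted difference of each of the 42 members, Utx knockout minus Utx wildtype on the log2 scale (horizontal axis), with its SE as a bar, grouped by role down the page. The 15 filled points passed limma's adjusted p of 0.05, all to the right of 0, from 0.84 for Ccnd3 to 2.53 for Ccnf, while the 12 transcriptional members lie between -0.33 and 0.46.

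Markers of other thymic cells moved on the same arrays. Of 11 double-positive thymocyte markers tested, 8 rose, with a mean log2 level over the list of 11.09 to 11.70 in knockout and 9.95 to 10.42 in wildtype samples. For all 11, every knockout array lay above every wildtype array, which held for 22.2% of all genes. Their differences ran from 0.54 for Dntt to 2.24 for Arpp21. Of 12 macrophage and dendritic cell markers tested, 4 rose, Csf1r by 4.05, H2-Aa by 1.83, Lyz2 by 1.77 and Cd68 by 1.54 (list level 6.30 to 7.13 in knockout, 5.26 to 5.85 in wildtype samples), with the knockout arrays of 3 others, Fcgr1, C1qa and C1qc, all above the wildtype arrays. C1qb (2.47), Itgax (0.93), Adgre1 (0.35), Mrc1 (-0.10) and Siglech (-0.14) did not pass and had overlapping groups. Adgre1 and Mrc1 had differences of 1.80 and 1.67 within batch 1 and -0.61 and -1.28 within batch 2. Of 5 B cell markers, 2 rose, Cd79a by 1.78 and Cd79b by 1.61 (list level 6.95 to 7.94 in knockout, 6.14 to 6.52 in wildtype samples), and Ms4a1 (1.18) and Blnk (1.09) did not pass but had no overlap between the groups. Itgam and Cd14 of the myeloid list lay under the level filter, at means of 3.39 and 4.09 in knockout and 3.39 and 3.71 in wildtype samples, and Pax5, which defines B cells, averaged 4.70 in knockout and 4.87 in wildtype samples. Among 10 iNKT and T cell markers, Tbx21 (-1.08) and Il2rb (-1.01) fell, calls that ended in 6 and 3 of the 9 fits with 1 array fewer, and Zbtb16, which encodes PLZF, averaged 10.72 in knockout and 10.95 in wildtype samples. None of 4 thymic epithelial markers and 1 red cell marker passed limma's test, also at an unadjusted p under 0.05. The part of these other cells in the differences below was not tested. Bulk RNA also cannot tell more cells in cycle from more RNA of these genes per cell.

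Of the S, G2 and M phase members, 5 of 7 rose, with a median difference of 1.86. Ccnb2, a B-type cyclin of mitosis, read 11.04, 10.55, 11.02 and 10.93 in KO1 to KO4, against 8.61, 8.85, 8.60, 9.01 and 8.75 in WT1 to WT5. Its lowest knockout array lay more than 1 log2 unit above its highest wildtype array. The difference was 2.16 (SE 0.21, 4.47-fold, adjusted p = 0.00281), the smallest p among the members. Cdk1, the mitotic kinase that B-type cyclins activate, read 11.39, 10.92, 11.11 and 11.06 in KO1 to KO4, against 9.02, 9.52, 9.10, 9.54 and 9.25 in WT1 to WT5. It rose by 1.86 (SE 0.22, 3.62-fold, adjusted p = 0.00409), again with no overlap between the groups. Ccna2, the A-type cyclin of dividing cells, read 11.97, 11.42, 11.94 and 11.81 in KO1 to KO4, against 9.74, 10.14, 9.98, 9.93 and 10.08 in WT1 to WT5. The Ccna2 difference was 1.84 (SE 0.21, adjusted p = 0.00364). Cdc25c, a phosphatase that activates Cdk1 at mitosis, read 9.69, 8.96, 9.41 and 9.73 in KO1 to KO4 and 6.79, 7.33, 6.85, 7.43 and 7.08 in WT1 to WT5, and rose by 2.38 (SE 0.29, 5.22-fold, adjusted p = 0.00409). Ccnf, a cyclin that binds no CDK and serves as the substrate receptor of an SCF ubiquitin ligase, read 9.67, 8.53, 9.88 and 9.93 in KO1 to KO4 and 6.88, 7.10, 6.90, 7.53 and 6.80 in WT1 to WT5. It had the largest difference of all members, 2.53 (SE 0.41, 5.76-fold, adjusted p = 0.00988), and KO2 stood more than 1 log2 unit below the other knockout arrays.

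The other two members of this group did not pass. Cdc25b, the Cdc25 phosphatase that acts at the onset of mitosis, had a level of 11.23 ± 0.09 in knockout (SD, n = 4) and 11.04 ± 0.11 in wildtype samples (SD, n = 5), a difference of 0.20 (adjusted p = 0.425). Ccna1, the A-type cyclin known from the germ line, averaged 5.14 in knockout and 5.12 in wildtype samples, below the median of every array (difference 0.0031, adjusted p = 0.992). The 5 that rose kept their calls whichever of the 9 arrays was left out, with adjusted p between 0.000963 and 0.0462. These are not 9 separate checks. Without WT3, WT4 or WT5 the difference itself cannot move, and the fits without KO1 and without WT1 are the same. Within batch 1, where 1 knockout array is set against 1 wildtype array, the 5 differences were 2.23 to 2.90, and within batch 2 they were 1.51 to 2.35. On the same arrays the double-positive thymocyte list read 11.09 to 11.70 in knockout and 9.95 to 10.42 in wildtype samples.

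**Figure D2:**
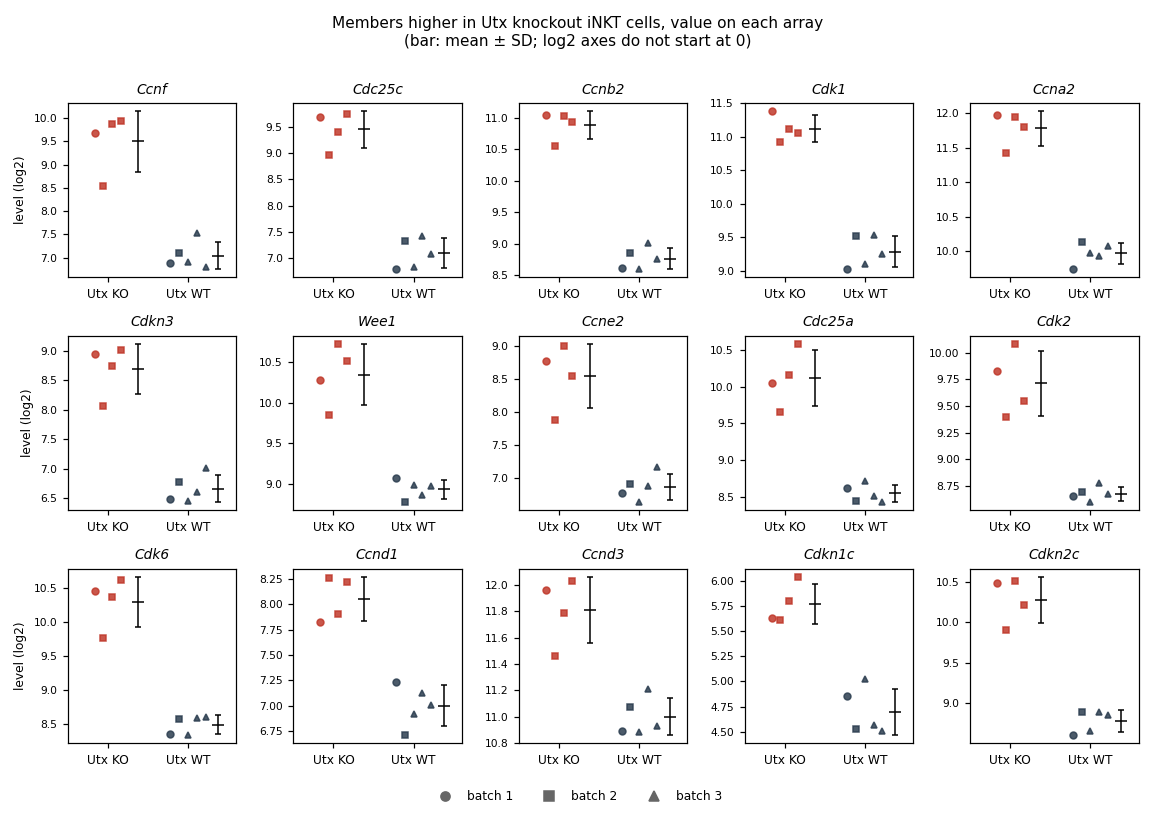
Level of the 15 members that rose, on each array (vertical axes, log2, not starting at 0), Utx knockout on the left and Utx wildtype on the right of each panel, with batches as marker shapes and the mean ± SD as a bar. No panel has overlapping groups, which the choice of these members by their difference on the same arrays favours. The square of KO2 is the lowest knockout point in 14 of the 15.

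Promoters of these genes are shown for the motifs that cell cycle genes are known to share. The cell cycle genes homology region (CHR, searched as TTTGAA or TTCGAA) is bound by the MuvB core of the DREAM complex, which represses such genes in resting cells, the CCAAT box (CCAAT) by the activator NF-Y, and E2F sites (searched as TTTGGCGC, TTTCCCGC, TTTCGCGC or TTTGCCGC) by E2F factors. Both strands were searched, and no motif contains another. RefSeq windows of 300 bases on GRCm38.p6, most of each upstream of the start site, were used for 32 of the 42 members and 9 of the 15 that rose. Any member's window on a chromosome that was set aside was left out, while the shares over all genes kept that chromosome. The windows printed, 5′ to 3′ on the gene's strand with all motif matches in capitals, are those of Ccnb2 (chr9:70421505-70421804, minus strand), Cdk1 (chr10:69352863-69353162, minus strand), Ccnf (chr17:24251360-24251659, minus strand), Cdc25a (chr9:109875329-109875628, plus strand) and Cdk6 (chr5:3343643-3343942, plus strand).

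Ccnb2: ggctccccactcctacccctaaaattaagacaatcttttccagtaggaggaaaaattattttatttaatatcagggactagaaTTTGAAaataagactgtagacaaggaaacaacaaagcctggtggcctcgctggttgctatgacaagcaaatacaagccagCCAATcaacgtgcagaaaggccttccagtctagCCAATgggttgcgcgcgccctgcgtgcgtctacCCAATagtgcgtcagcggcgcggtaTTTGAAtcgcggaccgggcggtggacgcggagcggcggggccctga
Cdk1: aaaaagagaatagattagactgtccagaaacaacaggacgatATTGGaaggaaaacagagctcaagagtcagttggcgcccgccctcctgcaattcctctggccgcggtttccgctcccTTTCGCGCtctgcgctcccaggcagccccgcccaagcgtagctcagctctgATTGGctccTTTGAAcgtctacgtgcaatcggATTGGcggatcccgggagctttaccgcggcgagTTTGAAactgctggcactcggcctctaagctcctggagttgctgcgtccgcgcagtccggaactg
Ccnf: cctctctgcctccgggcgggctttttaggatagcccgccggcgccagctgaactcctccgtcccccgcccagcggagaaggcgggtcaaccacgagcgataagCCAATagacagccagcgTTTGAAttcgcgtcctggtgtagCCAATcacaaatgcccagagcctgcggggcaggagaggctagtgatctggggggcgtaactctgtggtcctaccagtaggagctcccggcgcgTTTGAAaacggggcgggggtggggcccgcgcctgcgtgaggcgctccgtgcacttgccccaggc
Cdc25a: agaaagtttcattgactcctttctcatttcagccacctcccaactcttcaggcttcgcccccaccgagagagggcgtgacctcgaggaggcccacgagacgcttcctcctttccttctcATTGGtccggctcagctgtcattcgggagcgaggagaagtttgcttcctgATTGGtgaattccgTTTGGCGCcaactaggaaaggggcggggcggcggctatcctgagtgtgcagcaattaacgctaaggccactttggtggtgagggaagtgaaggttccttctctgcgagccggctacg
Cdk6: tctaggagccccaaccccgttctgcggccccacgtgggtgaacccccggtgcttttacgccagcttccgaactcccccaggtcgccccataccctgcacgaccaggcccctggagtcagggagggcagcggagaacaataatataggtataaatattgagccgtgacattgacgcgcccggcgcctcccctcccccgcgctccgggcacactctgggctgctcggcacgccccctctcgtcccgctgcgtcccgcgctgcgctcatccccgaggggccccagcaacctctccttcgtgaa

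Ccnb2 held CCAAT boxes whose leftmost bases lay at -87, -54 and -21 from the start site and CHR matches at -167 and 5. Cdk1 held CHR matches at -71 and -15, with an E2F match at -131, and Ccnf held CHR matches at -130 and -14. Cdc25a held an E2F match at -67 and CCAAT boxes at -131 and -81, with no CHR match. None of the motifs was in the Cdk6 window, although Cdk6 rose as much as Cdk1, which says only that these letters are not in that window. A CHR match was in 4 of the 9 members that rose (44.4%), in 3 of the 23 others with a window (13%) and in 21.7% of all 27025 genes with a window. For the CCAAT box these shares were 8 of 9 (88.9%), 11 of 23 (47.8%) and 41.1%, and for the E2F site 3 of 9 (33.3%), 1 of 23 (4.35%) and 2.6%. Of the 5 S, G2 and M members with a window, 4 held a CHR match, among them Cdc25b, which did not pass the test. These matches are a description of the letters, and binding was not measured.

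Of the 2 kinases that restrain Cdk1, 1 rose, and so did the CDK phosphatase Cdkn3. Wee1, the kinase that phosphorylates Cdk1 to keep it inactive, read 10.27, 9.85, 10.73 and 10.51 in KO1 to KO4, against 9.07, 8.78, 8.99, 8.87 and 8.98 in WT1 to WT5, and rose by 1.43 (SE 0.25, 2.70-fold, adjusted p = 0.0120). Pkmyt1, which encodes the related membrane-bound kinase Myt1, read 7.82, 7.61, 8.51 and 8.57 in KO1 to KO4 and 7.50, 6.84, 7.26, 7.19 and 7.09 in WT1 to WT5. Its groups did not overlap, but the difference of 0.96 did not pass (SE 0.33, adjusted p = 0.0912). It was 0.32 within batch 1 and 1.39 within batch 2. Pkmyt1 was called without KO2 (adjusted p = 0.0441), without KO1 or WT1, which is the same fit (adjusted p = 0.0459), and without a batch term (0.95, adjusted p = 0.00643). Cdkn3, a phosphatase that removes the activating phosphate of Cdk1 and Cdk2, read 8.95, 8.07, 8.74 and 9.02 in KO1 to KO4, against 6.48, 6.76, 6.44, 6.59 and 7.004 in WT1 to WT5. Cdkn3 rose by 2.10 (SE 0.30, 4.27-fold, adjusted p = 0.00634) and kept its call without any single array, whereas the call of Wee1 ended without WT2 (1.20, adjusted p = 0.132).

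At the entry to S phase, 3 of 4 members rose, with a median difference of 1.32. Ccne2, an E-type cyclin, read 8.77, 7.87, 9.001 and 8.54 in KO1 to KO4, against 6.78, 6.91, 6.64, 6.88 and 7.17 in WT1 to WT5 (difference 1.74, SE 0.31, 3.33-fold, adjusted p = 0.0134). Cdc25a, the phosphatase that activates Cdk2 at this step, read 10.05, 9.66, 10.16 and 10.58 in KO1 to KO4, against 8.63, 8.45, 8.71, 8.52 and 8.43 in WT1 to WT5 (difference 1.58, SE 0.25, adjusted p = 0.00956). In both genes every knockout array lay above every wildtype array. Cdk2, the kinase partner of E- and A-type cyclins, read 9.83, 9.40, 10.09 and 9.55 in KO1 to KO4, against 8.65, 8.69, 8.59, 8.78 and 8.67 in WT1 to WT5 (difference 1.06, SE 0.21, adjusted p = 0.0188). Ccne1, the other E-type cyclin, averaged 8.78 ± 0.43 in knockout (SD, n = 4) and 8.23 ± 0.22 in wildtype samples (SD, n = 5), and its difference of 0.56 did not pass (SE 0.30, adjusted p = 0.231). KO2 lay within the wildtype range for Ccne1, and a dimmer probe set of the same gene rose by 1.39 (adjusted p = 0.0234 over all probe sets). The calls of Ccne2 and Cdc25a ended without WT2 (1.995, adjusted p = 0.0540, and 1.42, adjusted p = 0.0862). That of Cdk2 ended without WT2, without WT1 or KO1, which is the same fit (adjusted p up to 0.0925), and after another quantile normalization (0.79, adjusted p = 0.0529).

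The D-type cyclins differed among themselves. Ccnd3 read 11.96, 11.46, 11.79 and 12.03 in KO1 to KO4, against 10.89, 11.08, 10.88, 11.21 and 10.93 in WT1 to WT5, and rose by 0.84 (SE 0.21, 1.79-fold, adjusted p = 0.0381). Ccnd1 read 7.83, 8.26, 7.91 and 8.22 in KO1 to KO4, against 7.24, 6.71, 6.92, 7.13 and 7.004 in WT1 to WT5, and rose by 1.09 (SE 0.22, 2.13-fold, adjusted p = 0.0183). Ccnd2 had the opposite sign: it read 11.85, 12.27, 11.93 and 12.03 in KO1 to KO4, against 12.76, 12.43, 12.54, 12.64 and 12.64 in WT1 to WT5. Every knockout array lay below every wildtype array for Ccnd2, yet the difference of -0.57 did not pass (SE 0.18, adjusted p = 0.0777), and it was called without KO2 (adjusted p = 0.0471) and with a trend in eBayes (adjusted p = 0.0167). All 7 probe sets of Ccnd2 had negative differences, from -0.80 to -0.44, and none passed over all probe sets. Whether the D-type cyclins differ from each other in their response was not tested.

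Of their kinases, Cdk6 rose and Cdk4 did not pass. Cdk6, which is known from lymphoid and myeloid progenitors, read 10.45, 9.76, 10.37 and 10.61 in KO1 to KO4, against 8.35, 8.57, 8.33, 8.58 and 8.60 in WT1 to WT5. It rose by 1.85 (SE 0.25, 3.60-fold, adjusted p = 0.00535) and kept its call whichever array was left out. Cdk4 read 11.10, 11.18, 11.12 and 11.16 in KO1 to KO4 and 10.83, 10.65, 10.66, 10.94 and 10.66 in WT1 to WT5. Its groups did not overlap, and the difference of 0.41 (SE 0.16) had an adjusted p of 0.122. The call of Ccnd3 ended in 8 of the 9 fits that left out 1 array, all but that without KO2 (differences 0.69 to 1.07, adjusted p up to 0.117), and that of Ccnd1 ended without WT2 (0.59, adjusted p = 0.318) and with the mean of its 3 probe sets (0.46, adjusted p = 0.0808). Of these 9, the fits without KO1 and without WT1 are the same.

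**Figure D3:**
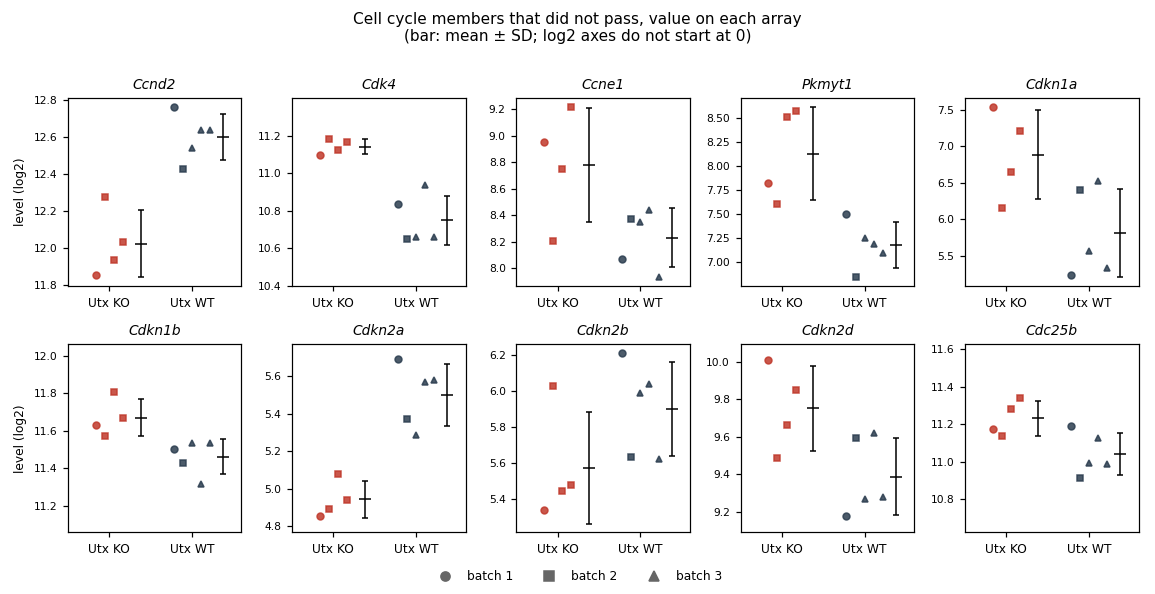
Level of 10 cell cycle members that did not pass, on each array (vertical axes, log2, not starting at 0, each at least 1 unit tall), Utx knockout on the left and Utx wildtype on the right, with batches as marker shapes and the mean ± SD as a bar. The knockout arrays lie below the wildtype arrays for Ccnd2 and Cdkn2a and above them for Cdk4, Pkmyt1 and Cdkn1b, and the groups overlap for the other genes drawn.

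Among the INK4 inhibitors, 1 of 4 rose. Cdkn2c, which encodes p18, read 10.49, 9.91, 10.52 and 10.21 in KO1 to KO4, against 8.60, 8.89, 8.65, 8.88 and 8.85 in WT1 to WT5. It rose by 1.55 (SE 0.22, 2.93-fold, adjusted p = 0.00607) and stayed called without any single array. Cdkn2d, which encodes p19, read 10.01, 9.49, 9.66 and 9.85 in KO1 to KO4 and 9.18, 9.59, 9.27, 9.62 and 9.28 in WT1 to WT5, with a difference of 0.38 (SE 0.22, adjusted p = 0.276). Cdkn2a, the locus of p16 and Arf and a known target of H3K27 methylation, read 4.86, 4.89, 5.08 and 4.94 in KO1 to KO4, against 5.69, 5.37, 5.29, 5.57 and 5.58 in WT1 to WT5. Its knockout arrays all lay lower, but the difference of -0.58 did not pass (SE 0.17, adjusted p = 0.0681), and all 9 levels lay below the median of their array. Cdkn2b, the neighbouring gene for p15, read 5.34, 6.03, 5.45 and 5.48 in KO1 to KO4 and 6.21, 5.63, 5.98, 6.03 and 5.62 in WT1 to WT5 (difference -0.34, SE 0.27, adjusted p = 0.413). Whether signals this low are above background was not measured.

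Of the CIP/KIP inhibitors, 1 of 3 rose. Cdkn1c, an imprinted gene for p57, read 5.63, 5.61, 5.80 and 6.04 in KO1 to KO4, against 4.85, 4.52, 5.02, 4.57 and 4.51 in WT1 to WT5 (difference 1.09, SE 0.22, adjusted p = 0.0203). Its wildtype levels lay around the filter level of 4.54, so no fold is given. The call ended without WT2 (0.78, adjusted p = 0.268). Cdkn1b, which encodes p27, the inhibitor known from resting T cells, read 11.63, 11.57, 11.80 and 11.67 in KO1 to KO4 and 11.51, 11.43, 11.53, 11.32 and 11.53 in WT1 to WT5. The difference of 0.20 did not pass (SE 0.16, adjusted p = 0.40). Cdkn1a, the p53 target that encodes p21, read 7.54, 6.15, 6.65 and 7.21 in KO1 to KO4 and 5.24, 6.40, 5.56, 6.53 and 5.33 in WT1 to WT5. Its groups overlapped, and its difference of 1.08 (SE 0.51, adjusted p = 0.190) was 2.31 in batch 1 and 0.27 in batch 2, the widest gap between batches among the members.

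None of the 12 transcriptional cyclins and CDKs passed limma's test, and Cdk8 alone had an unadjusted p under 0.05. Their median difference was 0.07, close to the 0.11 of all genes, with 7 positive and 5 negative. Ccnh and Cdk7, which form the CDK-activating kinase and part of TFIIH, had differences of -0.04 (adjusted p = 0.868) and -0.08 (adjusted p = 0.732). For Ccnt1, Ccnt2 and Cdk9, the subunits of the elongation factor P-TEFb, they were -0.08, 0.22 and 0.26. Ccnk and its kinases Cdk12 and Cdk13 had 0.46, 0.17 and -0.23, and Ccnl1 and Ccnl2, cyclins linked to splicing, had 0.02 and 0.12. For the Mediator kinase module, Cdk8 read 11.37, 11.33, 11.44 and 11.49 in KO1 to KO4 and 11.02, 10.89, 11.16, 10.75 and 10.99 in WT1 to WT5, with no overlap but no call (difference 0.45, SE 0.17, adjusted p = 0.114). Its cyclin Ccnc had -0.33 (adjusted p = 0.217), its knockout arrays all below its wildtype arrays. Without a batch term, Ccnk (0.43, adjusted p = 0.0317) and Cdk8 (0.44, adjusted p = 0.00617) were called higher and Ccnc (-0.35, adjusted p = 0.0178) lower, in a fit that called 27.8% of all genes higher and 15.9% lower. With batch as a random block, which called 42.5% higher and 26.7% lower, Ccnt2, Cdk9 and Cdk12 were also called higher.

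The 4 atypical members did not pass limma's test either, and 1 of them, Ccng2, had an unadjusted p under 0.05. Ccng2, a cyclin known to be induced when cells leave the cycle, averaged 11.27 ± 0.29 in knockout (SD, n = 4) and 10.77 ± 0.09 in wildtype samples (SD, n = 5), with KO2 level with WT3, the highest wildtype array (difference 0.52, SE 0.21, adjusted p = 0.137). It was called without KO2 (adjusted p = 0.0471), and its dimmer probe set rose by 0.85 (adjusted p = 0.0275 over all probe sets). The p53 target Ccng1 had a difference of -0.10, Ccni 0.12 and Cdk5, best known from neurons, 0.11.

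The knockout samples were not alike. KO2 was the lowest knockout array in 14 of the 15 members that rose, and KO1 was the lowest for Ccnd1. The share of all genes with KO2 lowest was not counted, so this order is not shown to be particular to the members. KO2 also had the narrowest interquartile range of the knockout arrays, 3.80 against 3.92 to 4.29. The median of these members lay 1.90, 1.26, 1.83 and 1.77 above the wildtype mean in KO1 to KO4, and between -0.14 and 0.10 from it in the wildtype samples. KO2 also had the lowest double-positive thymocyte and myeloid list levels of the knockout arrays, at 11.09 and 6.30, whereas the B cell list was lowest in KO4, at 6.95, with 7.20 in KO2. Without KO2, 17 members were called higher, and Ccnd2 was called lower, in a fit that called 10.4% of all genes higher and 3.76% lower.

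All 15 members that rose had positive differences in both batches that hold both genotypes, a direction that their choice by the difference over these batches nearly fixes. In batch 1 the median over all 42 members was 0.33 and in batch 2 it was 0.40, and over the 26 members with a role in the cycle it was 1.12 and 1.31. Deviations from the genotype means nearly cancelled within each batch, as given above. The differences of batches 1 and 2 are thus tied to each other and are not separate readings. In batch 2 alone, limma called 0 members, taking the lone wildtype array, WT2, to vary like the knockout arrays, with 15 higher and 0 lower at an unadjusted p under 0.05, where 17.3% of all genes were higher and 8.01% lower.

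**Figure D4:**
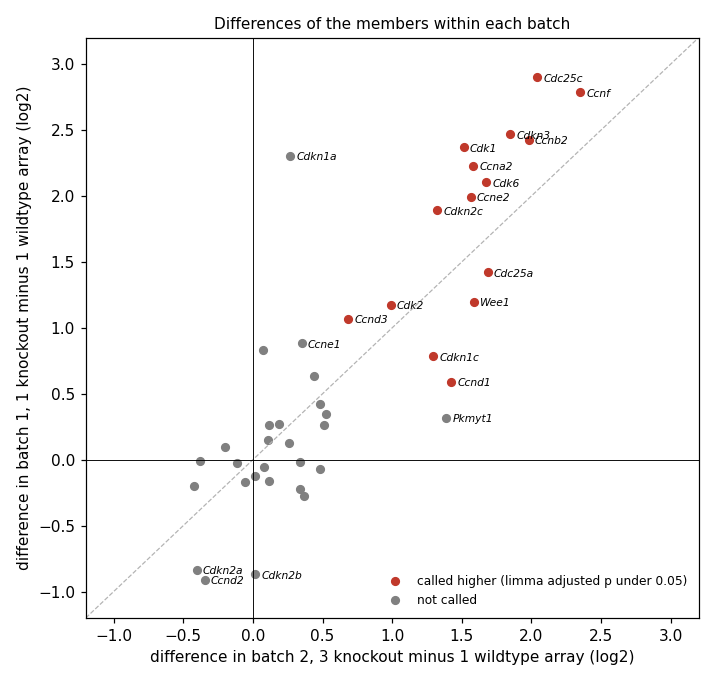
Difference of each of the 42 members within batch 2 (horizontal axis, 3 knockout minus 1 wildtype array, log2) and within batch 1 (vertical axis, 1 knockout minus 1 wildtype array, log2), with the dashed line marking equality. The 15 members that rose lie above 0.5 on both axes, and Cdkn1a, at 0.27 and 2.31, lies far from the line. The axes are not separate readings, since deviations from the genotype means nearly cancelled within each batch.

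Other probe sets of the members were compared over the whole array, where 3.73% of 45037 probe sets were called higher and 2.67% lower. The 42 members had 102 probe sets, of which 22 rose and 0 fell. Of 28 members with more than 1 probe set, 16 had differences of 1 sign throughout. Every probe set of Ccna2, Ccnf and Cdc25c rose, by 1.61 to 2.53 on the log2 scale. Cdk6 rose on 2 of 3 probe sets (1.85 and 1.80) and Cdc25a on 2 of 3 (1.58 and 1.01). Ccnd1 rose on 1 of 3, its others reading 0.52 and -0.24 at mean levels of 5.71 and 4.82. For Cdk7, whose brightest probe set had -0.08, the other 4 had 0.15 to 0.78 and none passed.

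The pathway around the members was read from a list of Rb, E2F, DREAM, ubiquitin ligase and checkpoint genes. Of 53 with a probe set, 27 rose and 1 fell, with a median difference of 0.72. Over all genes tested, 7.88% were called higher and 3.37% lower, and the median difference was 0.11. Trp53 was not analysed here. The pocket proteins, which bind E2F factors, split. Rbl2, which encodes p130, the pocket protein of resting cells, read 9.08, 9.29, 9.06 and 8.83 in KO1 to KO4, against 10.24, 10.11, 10.14, 10.09 and 10.24 in WT1 to WT5, and fell by 1.09 on the log2 scale (SE 0.17, adjusted p = 0.00894), the lone fall of the list. Rbl1, which encodes p107, the pocket protein of cycling cells, read 10.87, 10.65, 11.06 and 10.89 in KO1 to KO4, against 9.88, 9.82, 9.92, 9.66 and 10.04 in WT1 to WT5, and rose by 1.03 (SE 0.18, adjusted p = 0.0129). The groups overlapped for neither gene, and the calls of Rbl1 and Rbl2 ended without WT2 (0.99, adjusted p = 0.102, and -1.16, adjusted p = 0.0502), as did that of Rbl1 with the mean of its probe sets (0.42, adjusted p = 0.127). Rb1 had a difference of 0.62 that did not pass (SE 0.21, adjusted p = 0.0870).

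Of the E2F factors, 5 of 8 rose. E2f8, an atypical E2F that represses, read 11.47, 11.02, 11.57 and 11.49 in KO1 to KO4, against 8.92, 8.999, 9.15, 8.91 and 9.0002 in WT1 to WT5 (difference 2.44, SE 0.20, 5.41-fold, adjusted p = 0.00207). E2f7, its closest relative, had the largest rise of the list, 2.88 (SE 0.39, adjusted p = 0.00529). The activators E2f1, E2f2 and E2f3 rose by 1.69, 1.92 and 0.81 (adjusted p 0.0266, 0.00636 and 0.0259). The call of E2f3 ended without WT1, WT2, WT5, KO1 or KO3 (adjusted p up to 0.0859) and after another quantile normalization (0.64, adjusted p = 0.0587), and that of E2f1 without WT1, WT2, KO1 or KO3 (adjusted p up to 0.159) and with the mean of its probe sets (0.69, adjusted p = 0.0714). For both genes, the fits without KO1 and without WT1 are the same. E2f4, E2f5 and E2f6, known as repressors in resting cells, had differences of 0.25, -0.04 and 0.20 and did not pass, although the mean of its probe sets was called for E2f6 (0.84, adjusted p = 0.0325). The other genes of smallest p were Chek1, a checkpoint kinase (2.25), Cdc20, which activates the anaphase-promoting complex (2.57), and the mitotic kinase Plk1 (2.18, adjusted p 0.0026 to 0.00447). Myc had a difference of -0.14 (adjusted p = 0.782), with overlapping groups. On these arrays too the double-positive thymocyte list was higher in knockout samples, as given above, and its part in these differences was not tested.

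**Figure D5:**
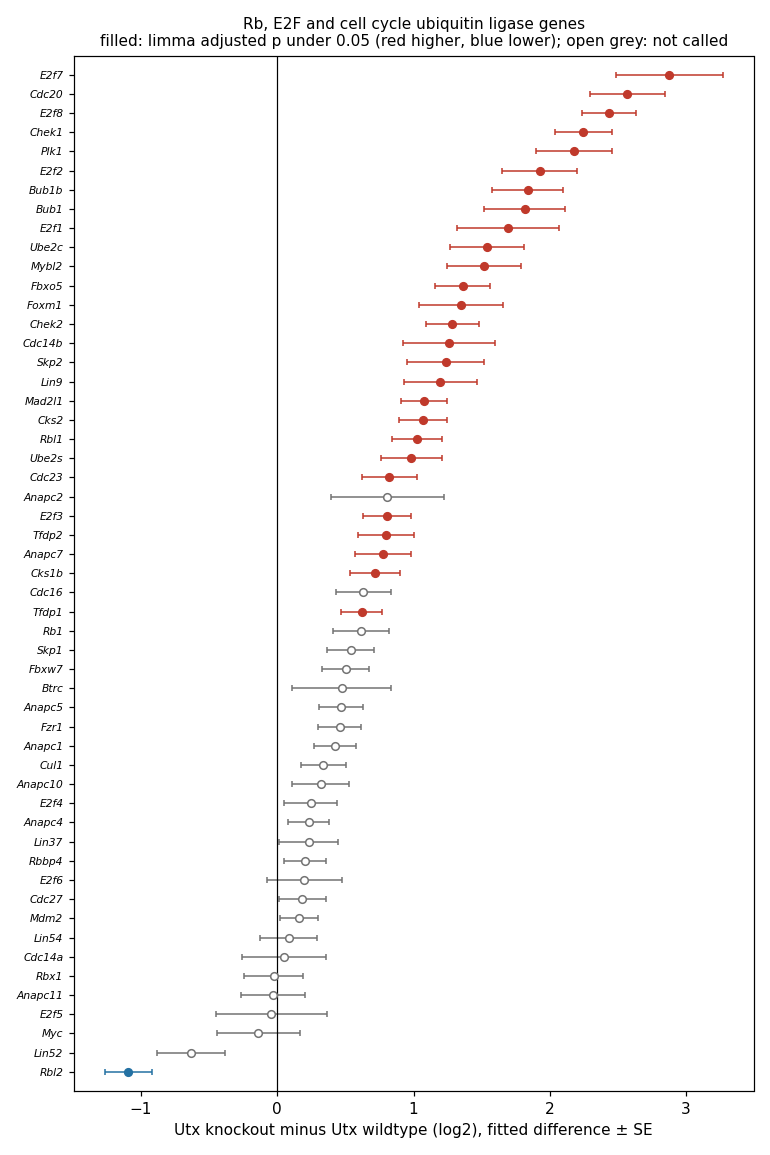
Fitted difference of each of 53 Rb, E2F, DREAM, ubiquitin ligase and checkpoint genes, Utx knockout minus Utx wildtype on the log2 scale (horizontal axis), with its SE as a bar, ordered by size. The 27 filled red points rose, from 0.62 for Tfdp1 to 2.88 for E2f7, and Rbl2 is the lone filled blue point, at -1.09.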

How the data were processed

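Microarray levels of thymic iNKT cells were measured on arrays, after RNA amplification per the labels' protocols, in 4 Utx knockout and 5 Utx wildtype samples. The deposited log2 values, 1 per probe set and array, were made by the authors with RMA (version not given), per the submitters' processing notes. Of 45101 probe sets, 34945 had 1 gene in the array's annotation table, 932 several, 9160 none and 64 were controls. For each gene the probe set of highest mean was used, and genes whose mean passed 4.54, the 25th percentile over all probe sets, were tested. Differences came from limma 3.58.1 (R 4.3.3; lmFit and eBayes) with genotype and batch as fixed factors, two-sided, with Benjamini-Hochberg adjustment over all genes tested. Errors are the SE of the fitted difference or the SD between arrays. The fit was run on simulated data with independent noise and larger batch shifts than seen here, so that run does not check the p-values. No 2 arrays of a group were duplicates (smallest SD of their difference 0.30). Titles gave groups, replicates and batches. Named were every member, Kdm6a, and of the pathway list Rb1, E2f1, Myc and the 4 called genes of smallest p in each direction. Rbl1, Tfdp1, the other E2F genes and the markers named were chosen after their values were seen. The members and lists were chosen with earlier results of these data known. Alternatives covered batch, replicate block, filter, scaling, probe set, eBayes, threshold and single arrays.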

Additional observations from a re-analysis of the deposited data

Results flagged for a closer look

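Of 84 groups of values, the knockout and wildtype arrays of each of the 42 members, 1 had an array far from the others of its group, and chance sets apart about 1 group in 20. Ccnt2, a cyclin subunit of P-TEFb, read 10.89 in KO2, against 11.04 in each of KO1, KO3 and KO4. The gap is 0.15 log2 units, and the gene did not pass (difference 0.22, adjusted p = 0.376).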

How the results depend on the processing

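With 15 members higher and 0 lower, these settings moved the higher count by more than 1.5 times: 9 at an adjusted p under 0.01, 29 with batch as a random block (which called 42.5% of all genes higher and 26.7% lower), and 8 without the batch 3 arrays (1.89% of all genes). Batch 2 alone holds 1 wildtype array, WT2, so calls in it are not counted here. Leaving out 1 array gave 8 (without WT2) to 17 (without KO2), and the 8 were Ccna2, Ccnb2, Ccnf, Cdc25c, Cdk1, Cdk6, Cdkn2c and Cdkn3. Members lower numbered 3 without a batch term, 4 with the random block, 1 with a trend in eBayes, and 0 to 1 when 1 array was left out. Of the pathway list, 27 higher became 12 at an adjusted p under 0.01, 44 with the random block, 10 without batch 3, 17 without the batch 1 pair, and 14 to 26 when 1 array was left out. Its 1 lower became 2 without a batch term or with the random block, 0 without batch 3, and 0 to 1 when 1 array was left out. Of all genes, 8.05% were called higher without the batch 1 pair, 3.79% without WT2 and 10.4% without KO2. The share at an adjusted p under 0.01 was not counted. Fewer arrays leave fewer degrees of freedom, and the random block also compares genotypes between batches. The cause of the other shifts was not tested.

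Replicate numbers 1 to 4 occur in both genotypes. Deviations of same-numbered arrays correlated at -0.92, 0.09, 0.02 and 0.15, so the numbers were not taken as pairs. With a replicate block, 19 members were higher and 2 lower, and 34 pathway genes were higher and 1 lower, in a fit that called 19.4% of all genes higher and 10.1% lower. The members gained were Ccng2, Ccnk, Cdk8 and Pkmyt1, higher, and Ccnd2 and Cdkn2a, lower.

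None of the differences that turned sign was called in the main fit or in the setting that turned it. Some of these genes were called in other settings. E2f6 was called higher with the mean of its probe sets. With batch as a random block, Cdk9, Cdc25b and Cdk12 were called higher and Cdkn2b lower. Leaving out 1 array turned the sign of 13: Ccna1 (-0.16 to 0.11), Ccnh (-0.12 to 0.014), Ccnl1 (-0.058 to 0.079), Ccnl2 (-0.22 to 0.34), Ccnt1 (-0.20 to 0.093), Cdk5 (-0.28 to 0.36), Cdk9 (-0.071 to 0.48), Cdkn2b (-0.87 to 0.016), Cdc25b (-0.016 to 0.34), Myc (-0.52 to 0.12), Kdm6a (-0.067 to 0.077), E2f5 (-0.43 to 0.21) and E2f6 (-0.062 to 0.37). In batch 2 alone and without the batch 1 pair, Ccnh turned to 0.014, Cdkn2b to 0.016, Myc to 0.12 and E2f5 to 0.21. With the mean of all probe sets, Ccni turned to -0.038, Ccnt1 to 0.16, Cdk7 to 0.41, Cdk12 to -0.072 and E2f5 to 0.021. After quantile normalization, Ccnl1 turned to -0.040, Cdk5 to -0.16, E2f4 to -0.035 and E2f6 to -0.078, and after median centring Kdm6a to 0.025. With the replicate block, Ccna1 turned to -0.014 and E2f5 to 0.011. Over all named genes and settings, 1051 values kept direction and side of the threshold, 72 lost the call and 49 gained it. These totals count the settings without KO1, without WT1 and without the batch 1 pair separately, although they are the same fit. Batch 2 alone is counted in them too. The median over all genes, 0.11, was 0.03 after quantile normalization and 0.15 after median centring.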
